A study of Mus musculus with 24 samples.

Results

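Potassium channel genes were followed in the mouse right ventricle after PSPI, the label given to an operation that loads this ventricle with pressure and volume. The members were all array probes whose gene name in the scanner files starts with Kcn, kept where 1 or more groups had the probe well above background on each of their arrays. Of 138 Kcn probes for 95 gene names, 44 probes for 38 gene names were kept. The other 94 probes were left out as too dim, and with them 57 gene names. Kcnd2, Kcnd3, Kcna1 and Kcnip2 were members by name, and each had 1 kept probe. RNA of the right ventricle of mice with the strain label M/FVB/10-12 was read on 24 arrays with 1 dye (Cy3), 1 array per sample. There were 5 samples taken 1 month after PSPI, 5 after 2 months, 4 after 3 months, and 10 from sham operation. No month is labelled for the shams, and all 10 served as the comparison for every month, although the design text speaks of 4 to 5 controls. The labels name no transgene or deletion in any group. Nor do they say whether each sample is a different animal. The p-values therefore reflect only how far these samples scatter, and that scatter may be technical.

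Potassium channels carry the outward currents that repolarise a heart muscle cell and hold it at rest. In mouse ventricle the fast transient outward current flows through Kv4 subunits (Kcnd2, Kcnd3) with their calcium-binding partner Kcnip2, and slower currents flow through Kcna4 and Kcna5. Inward rectifiers of the Kcnj family set the resting potential (Kcnj2, Kcnj12), answer acetylcholine (Kcnj3, Kcnj5) or sense ATP (Kcnj8, Kcnj11). Lower levels of several of these genes are a known feature of hypertrophied and failing hearts.

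All levels below are log2 of the normalized signal relative to each array's 75th percentile, taken over probes well above background on all arrays. A change is a log2 difference of group means ± its standard error, and each adjusted p comes from limma over the 21040 probes tested. The samples differed in ways that the labels do not give. Myh7, the slow myosin heavy chain that is known to rise under load in mouse heart, ranged over 4.67 to 5.91 on 15 arrays (all of months 2 and 3, month 1 samples 1 and 5, and Sham 6 to 9) and at 1.62 to 2.52 on the other 9. Sham 3, 4 and 10 carried atrial transcripts, with the atrial myosin light chain Myl7 at 3.48 to 3.53, against -7.89 to -3.59 in the other 7 shams. Myl7 also lay at -0.49 to 2.19 in month 1 samples 1, 2, 3 and 5 and at -0.89 to -0.47 in month 2 samples 1, 3 and 5, with the atrial gene Sln at 1.41 to 4.03 and 1.95 to 2.36 there. Month 3 had Myl7 at -7.27 to -5.91 and Sln at -6.12 to -2.91. In 8 pairs, arrays of 1 group nearly coincided, and averaging these leaves 17 samples. The arrays lay on 3 slides, of which slide 3 alone held all 4 groups. Most shams (7) were on slide 1, together with 1 array of month 1. Most of month 2 (4 arrays) was on slide 2, with 3 arrays of month 1, 1 of month 3 and no sham. The rest, on slide 3, were 1 array each of months 1 and 2, 3 of month 3 and 3 shams. Month 2 and sham thus met within a slide only as 1 array against 3. Fits with slide as a block, given below, are therefore not a balanced adjustment.

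The probes below carry the main results. Each reads 60 bases of its gene, and capitals mark G and C. Positions are on mm9 as the array files give them, and exon and UTR were not assigned here. The Kv4 probes lie at chr6:21679569-21679628 (Kcnd2, plus strand) and chr3:105476854-105476913 (Kcnd3, plus strand), and that of their partner at chr19:45868494-45868553 (Kcnip2, minus strand). The Kcna1 probe lies at chr6:126586524-126586583 (minus strand) and the Kcnj5 probe at chr9:32122418-32122477 (minus strand). For Kcnj4 the files give chr15:79314133-79314157 (minus strand), which is shorter than the probe.
Kcnd2: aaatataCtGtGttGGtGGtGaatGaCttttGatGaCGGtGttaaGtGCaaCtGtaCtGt
Kcnd3: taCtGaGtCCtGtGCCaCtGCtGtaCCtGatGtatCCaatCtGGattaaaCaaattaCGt
Kcnip2: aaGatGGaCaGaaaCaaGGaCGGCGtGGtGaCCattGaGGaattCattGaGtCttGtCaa
Kcna1: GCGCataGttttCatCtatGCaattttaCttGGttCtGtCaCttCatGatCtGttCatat
Kcnj5: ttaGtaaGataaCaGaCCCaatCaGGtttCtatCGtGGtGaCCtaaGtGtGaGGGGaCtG
Kcnj4: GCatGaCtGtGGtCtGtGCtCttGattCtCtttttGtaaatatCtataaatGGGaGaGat

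The channel genes moved in both directions, and most calls came at month 3. Over all 3 months, weighted equally, 6 of 44 Kcn probes were higher than in sham (12.6% of all probes tested were) and 10 were lower (10.8% of all probes). At month 1, 0 Kcn probes passed (0% of all probes did), while 8 had an unadjusted p under 0.05 in limma. At month 2, 4 were higher (6.22% of all probes) and 6 lower (6.68%). At month 3, 10 were higher (21.7% of all probes) and 11 lower (18.2%), in 20 of 38 gene names. Between months 2 and 1, 0 Kcn probes passed (0.00951% of all probes did), with 10 at an unadjusted p under 0.05 in limma. The share of all probes at an unadjusted p under 0.05 was not worked out. The unadjusted counts here and below therefore cannot be set against the whole array. Between months 3 and 2, 4 were higher at month 3 (12.9% of all probes) and 3 lower (9.69%). The median change of the 44 probes was -0.04 over all months, -0.17 at month 2 and -0.07 at month 3, beside 0.03, -0.003 and 0.03 for all probes.

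How a probe entered the set bears on these counts. All 6 probes called higher over all months, 3 of 4 at month 2 and 7 of 10 at month 3 had been kept through PSPI groups only. Likewise 2 of the 10 lower over all months and 3 of the 11 lower at month 3 had been kept, but not through month 2 or 3. The p-values of probes kept in these ways are not independent of the background filter. With near-coinciding arrays averaged, 4 probes passed over all months, 0 at month 2 (14 at an unadjusted p under 0.05 in limma) and 11 at month 3. Over the 21040 probes tested, the calls then numbered 1452 in place of 4921 over all months, 46 in place of 2713 at month 2 and 4839 in place of 8388 at month 3. Without Sham 3, 4 and 10 the Kcn counts were 9, 2 and 16 (over all probes 3050, 893 and 7178). In a fit chosen after seeing the data, all 10 arrays with Myl7 above the widest gap in its levels were left out, namely those 3 shams and the 7 named samples of months 1 and 2. That left 1 sample at month 1, which is assumed to vary like the other groups, 2 at month 2, 4 at month 3 and 7 shams. 1 Kcn probe then passed over all months (Kcnk15), 0 at month 2 (6 at an unadjusted p under 0.05 in limma), 11 at month 3 and 1 between months 3 and 2 (Kcnk15), beside 320, 2, 5349 and 998 of all probes. The month 3 calls that held in it were those of Kcnd2, Kcnip3, Kcna1, the second Kcna5 probe, Kcnv2, Kcnj5, Kcnj4, Kcnk15, Kcnk16, Kcnn2 and Kcne4. The month 2 count of 10 became 5 without month 2 sample 1, 6 without its sample 3 and 15 without Sham 8, and the month 3 count of 21 became 13 without month 3 sample 3. With slide as a fixed block, 5 probes were higher and 10 lower over all months, 3 and 9 at month 2, and 6 and 15 at month 3. Over all probes tested, 3036, 1364 and 6721 then passed in these 3 comparisons. Within slide 3 alone, where months 1 and 2 have 1 sample each, 0 probes passed over all months (14 at an unadjusted p under 0.05 in limma) and 0 at month 2 (6). At month 3, with 3 samples against 3 shams, 4 were higher and 4 lower within slide 3, beside 3566 of the 21040 probes tested.

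The split between higher and lower calls moved with the scaling. At month 3, 47.6% of the calls were higher, against 25% with the percentile taken over all probes, 23.8% after quantile normalization, 66.7% after normexp background correction and 68.4% from the deposited table. Over all months these shares were 37.5%, 26.3%, 23.5%, 58.3% and 58.3%, and between months 3 and 2 57.1%, 44.4%, 50%, 75% and 75%. The median change of all probes at month 3 was 0.0254 in the main scaling and -0.136, -0.0832, 0.178 and 0.195 under these alternatives. The deposited table also differs in the signal itself, as it holds gNetSignal where the main scaling starts from gProcessedSignal.

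**Figure D1:**
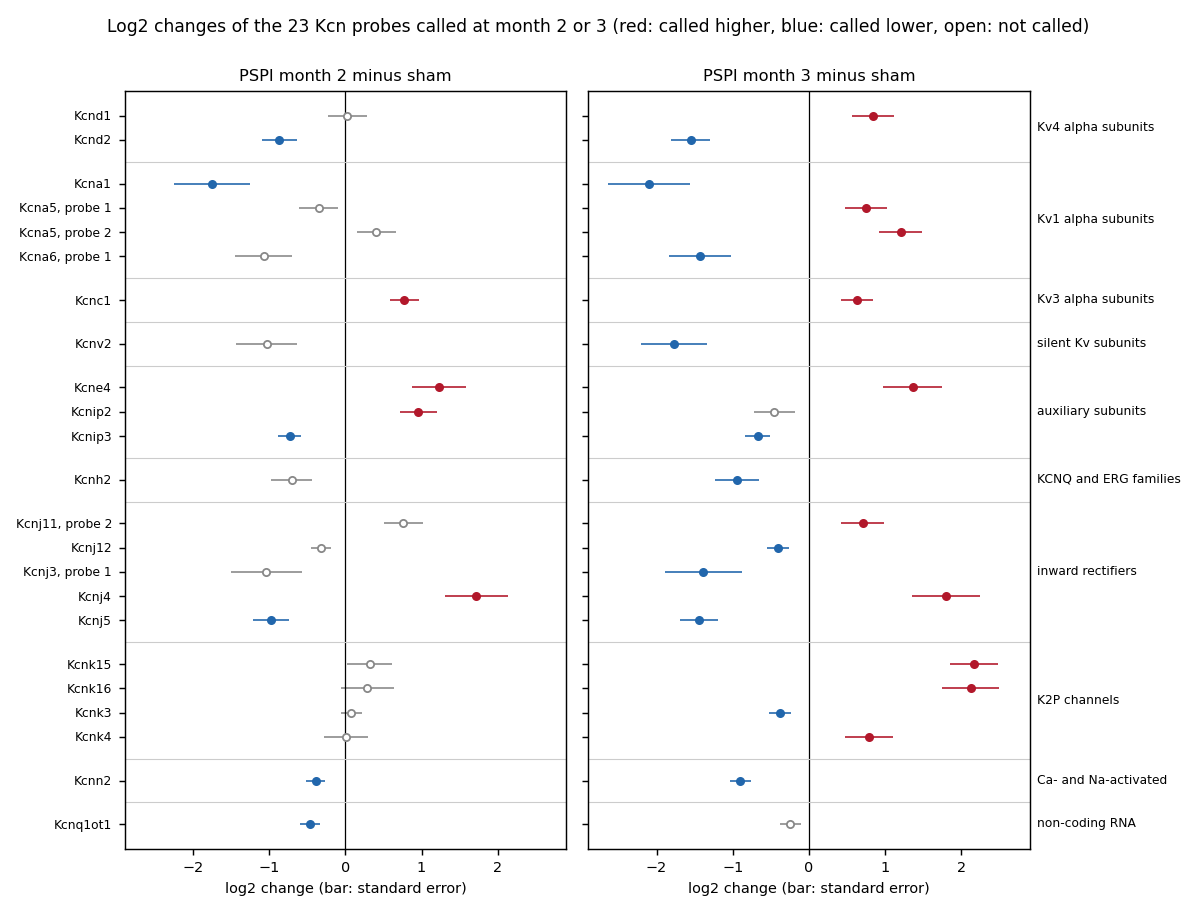
Log2 change ± standard error of the 23 Kcn probes that were called at month 2 (left), at month 3 (right) or at both, against sham, grouped by channel family. Red points were called higher, blue points lower, and open points did not pass in that month. Kcnd2, Kcna1 and Kcnj5 lie to the left and Kcnj4 to the right in both panels, while Kcnk15 and Kcnk16 stand far to the right at month 3.

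The transient outward current genes did not move as 1 group. Kcnd2, a pore subunit of that current, was lower at months 2 and 3. Its level was -1.73, -0.39, -0.49, -0.22 and -1.35 at month 1, -1.79, -1.02, -1.77, -1.74 and -1.44 at month 2, -1.88, -2.25, -1.99 and -2.82 at month 3, and -1.26 to -0.01 with a median of -0.71 in sham. All 4 month 3 samples, 4 of 5 month 2 samples and 2 of 5 month 1 samples lay below every sham. Those of month 1 were samples 1 and 5, at -1.73 to -1.35, with samples 2 to 4 at -0.49 to -0.22. Sham 6 to 9 stood at -1.26 to -0.83 and the other shams at -1.05 to -0.01. The change was -0.85 ± 0.18 over all months (1.81-fold lower, adjusted p = 0.00205), -0.87 ± 0.24 at month 2 (1.82-fold, adjusted p = 0.0206) and -1.55 ± 0.26 at month 3 (2.93-fold, adjusted p = 7.21e-05). The month 3 call held with near-coinciding arrays averaged (-1.59 ± 0.3, adjusted p = 0.00175), with slide as a block (-1.79 ± 0.28, adjusted p = 0.000105) and within slide 3 (adjusted p = 0.0119). The month 2 call was lost with arrays averaged (adjusted p = 0.118), without Sham 3, 4 and 10 (adjusted p = 0.0673) and without month 2 sample 1, 3 or 4 (adjusted p up to 0.0703). In such whole-tissue RNA, fewer cells of a type and less RNA per cell cannot be told apart.

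Kcnd3, the other main pore subunit of this current, did not pass in any month. Its level was -1.48, -1.21, -1.13, -0.98 and -1.54 at month 1, -1.7, -1.35, -1.34, -1.49 and -1.77 at month 2, -1.47, -1.45, -1.43 and -1.64 at month 3, and -1.78 to -0.8 with a median of -1.14 in sham, so every PSPI sample lay inside the sham range. The change was -0.33 ± 0.13 at month 2 (adjusted p = 0.0999) and -0.3 ± 0.15 at month 3 (adjusted p = 0.0994). With slide as a block it passed at both months (-0.63 ± 0.18, adjusted p = 0.0472, and -0.46 ± 0.17, adjusted p = 0.04). Kcnd1, a Kv4 subunit with little part in the ventricular current, was higher at month 3 (0.84 ± 0.28, adjusted p = 0.0209), with levels of -4.25, -2.68, -2.52 and -3.25 against -4.61 to -3.33 with a median of -4.1 in sham. 3 of 4 month 3 samples lay above every sham, and the call was lost with slide as a block (adjusted p = 0.142), with arrays averaged (adjusted p = 0.117) and without month 3 sample 2 or 3 (adjusted p up to 0.121).

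Kcnip2, the partner that brings Kv4 channels to the cell surface, was higher at month 2 than in sham, and lower at month 3 than at month 2. Its level was -1.86, -1.62, -1.88, -1.99 and -1.72 at month 1, -1.63, -1.2, -1.45, -1.4 and -1.48 at month 2, -1.97, -3.18, -2.96 and -3.26 at month 3, and -3.12 to -1.26 with a median of -2.45 in sham. Sham 6 to 9 stood at -2.26 to -1.26, a range that takes in 4 of 5 month 2 samples, and the other shams at -3.12 to -2.35. Month 3 samples 2 to 4 stood near the lowest shams, month 3 sample 1 stood with month 1, and 1 of 5 month 2 samples lay above every sham. The change was 0.96 ± 0.25 at month 2 (1.94-fold higher, adjusted p = 0.0155) and -0.45 ± 0.27 at month 3 (adjusted p = 0.176). Month 3 differed from month 2 by -1.41 ± 0.3 (2.66-fold lower, adjusted p = 0.00171), with all 4 month 3 samples below all 5 month 2 samples. That difference held with arrays averaged (-1.37 ± 0.34, adjusted p = 0.0171) and with slide as a block (-1.22 ± 0.34, adjusted p = 0.0249), and within slides it was -1.66 on slide 3 and -0.55 on slide 2. Without the 10 arrays of higher Myl7 it was -1.54 ± 0.41 and did not pass (adjusted p = 0.0501). The month 2 call against sham was lost with slide as a block (adjusted p = 0.177), with arrays averaged (adjusted p = 0.136) and without Sham 3, 4 and 10 (adjusted p = 0.0755). Without those 3 shams Kcnip2 passed as lower at month 3 (-0.71 ± 0.24, adjusted p = 0.0309).

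Kcnip3, a relative of Kcnip2 also known as a calcium-dependent repressor of transcription, was lower at months 2 and 3. Its level was -2.8, -2.16, -2.27, -2.35 and -2.85 at month 1, -3.12, -3.19, -3.15, -2.91 and -3.07 at month 2, -3.58, -2.81, -2.98 and -2.76 at month 3, and -2.83 to -1.97 with a median of -2.26 in sham. All 5 month 2 samples and 2 of 4 month 3 samples lay below every sham. Within sham, samples 6 to 9 stood at -2.83 to -2.5 and the others at -2.3 to -1.97. The change was -0.73 ± 0.16 at month 2 (adjusted p = 0.00673) and -0.67 ± 0.17 at month 3 (adjusted p = 0.00325). With arrays averaged the month 2 call was lost (adjusted p = 0.0923) and the month 3 call held (adjusted p = 0.0293).

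**Figure D2:**
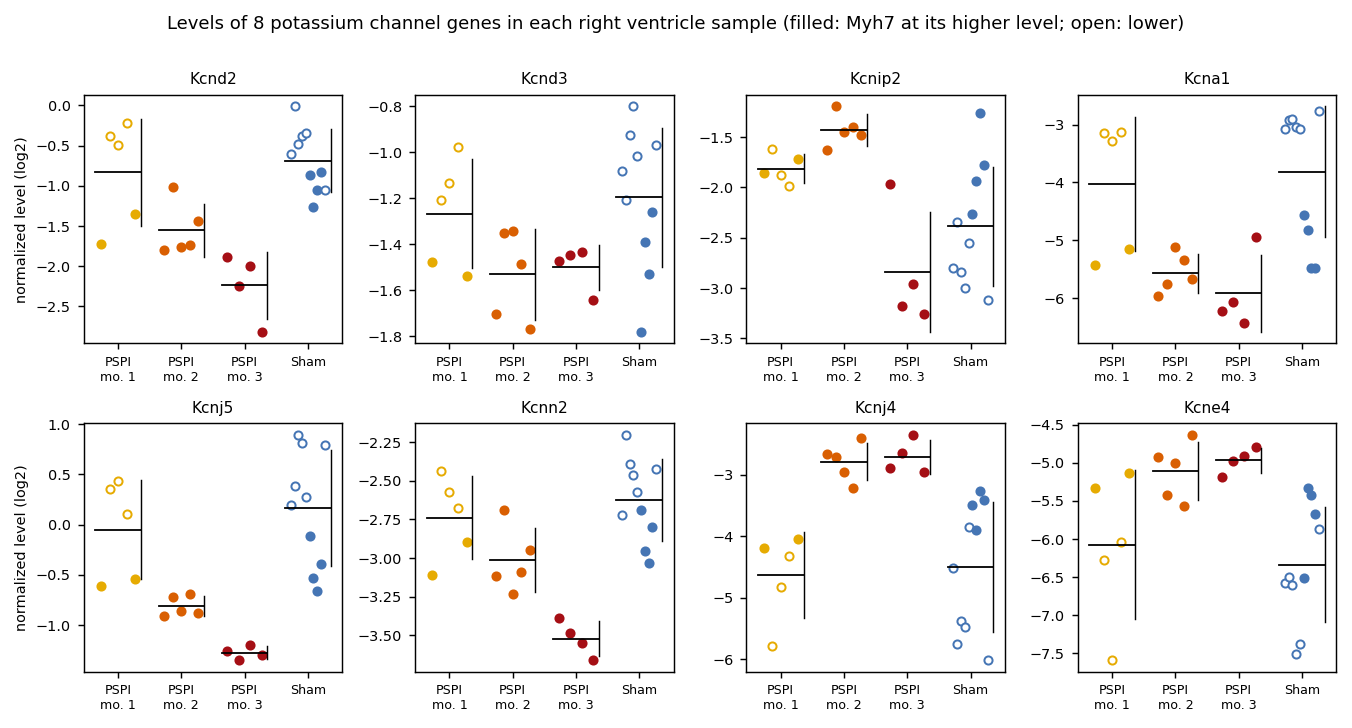
Normalized log2 level of 8 genes in each sample, PSPI by month and then sham, with the group mean as a horizontal line and ± 1 SD as a vertical line. Each panel has its own axis, and filled points are samples with Myh7 at 4.67 or more. Kcnd2, Kcna1, Kcnj5 and Kcnn2 have their lowest group mean at month 3, Kcnj4 and Kcne4 lie high at months 2 and 3, and Kcnip2 lies high at month 2.

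Among the Kv1 family, Kcna1 had the lowest change of any Kcn probe over all months (-1.35 ± 0.38, adjusted p = 0.0131). This gene encodes a subunit best known from axons. Its level was -5.42, -3.14, -3.28, -3.12 and -5.15 at month 1, -5.96, -5.76, -5.11, -5.34 and -5.68 at month 2, -6.22, -6.08, -6.44 and -4.94 at month 3, and -5.49 to -2.77 with a median of -3.08 in sham. The values lay in an upper and a lower range that crossed the groups. Sham 6 to 9 stood at -5.49 to -4.57 and the other 6 shams at -3.08 to -2.77, and month 1 samples 1 and 5 stood at -5.42 to -5.15 with samples 2 to 4 at -3.28 to -3.12. The change was -1.75 ± 0.5 at month 2 (adjusted p = 0.0247) and -2.1 ± 0.54 at month 3 (adjusted p = 0.004). Kcna1 was kept through sham and month 1 only, the groups where it is high, so its p-values are not independent of the background filter. The probe was above background on 5 of 5 arrays at month 1, 3 of 5 at month 2, 1 of 4 at month 3 and 10 of 10 in sham, and after normexp background correction the month 3 change was -0.73 ± 0.4 (adjusted p = 0.151). With arrays averaged it was -1.79 ± 0.62 at month 3 (adjusted p = 0.0468) and -1.49 ± 0.56 at month 2 (adjusted p = 0.163). The month 2 call was also lost without Sham 3, 4 and 10 (adjusted p = 0.119) and without month 2 sample 1 or 5 (adjusted p up to 0.0781).

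Of 7 neuron and Schwann cell markers 4 were kept, and Tubb3 and Prph had no kept probe. The summed level of the 4 kept markers was 1.1 to 1.53 at month 1, 0.71 to 2.01 at month 2, 2.18 to 3.7 at month 3 and 0.7 to 1.92 in sham. Single markers differed from that sum. At month 3, 1 of the 4 was higher (21.7% of all probes were) and 2 were lower (18.2%), with a median change of -0.64. Their part in the Kcna1 result was not tested.

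Kcna6, a Kv1 subunit whose gene lies near Kcna1, was read by 2 probes. The first lay at -6.21, -5.84, -6.44 and -4.47 in the month 3 samples and -5.63 to -3.49 with a median of -3.79 in sham, where Sham 6 to 9 stood at -5.63 to -5.09 and the others at -3.8 to -3.49, with 3 of 4 month 3 samples below every sham. This probe was kept through sham and month 1 only, where it is high, so its p-values are not independent of the background filter. It was above background on 1 of 4 arrays at month 3 and 10 of 10 in sham. It was lower at month 3 by the fit (-1.43 ± 0.4, adjusted p = 0.00797), while the second probe changed by 0.1 ± 0.25 (adjusted p = 0.774). The call of the first was lost after normexp correction (-0.23 ± 0.27, adjusted p = 0.505) and with arrays averaged (adjusted p = 0.0992). Over all months the first was lower (-0.81 ± 0.28, adjusted p = 0.0419), which was lost in 14 of 24 fits that left out 1 sample (adjusted p up to 0.0813). The 2 probes read different stretches, at chr6:126658424-126658483 and chr6:126686702-126686761, both on the minus strand.
Kcna6, first probe: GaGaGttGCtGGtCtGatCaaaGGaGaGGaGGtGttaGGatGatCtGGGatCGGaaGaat
Kcna6, second probe: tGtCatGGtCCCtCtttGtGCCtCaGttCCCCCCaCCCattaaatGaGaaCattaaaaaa

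Kcna5, the subunit of a slow potassium current of mouse ventricle, was higher at month 3 by both of its probes. The first lay at -3.92, -2.98, -2.75 and -2.64 at month 3 and -4.59 to -3.33 with a median of -3.68 in sham. The second lay at -5.03, -3.47, -4.28 and -3.99 at month 3 and -6.2 to -4.78 with a median of -5.38 in sham. The second was kept through months 2 and 3 only, so its p-values are not independent of the background filter. It was above background on 7 of 10 sham arrays. By either probe, 3 of 4 month 3 samples stood above every sham and sample 1 stood within the sham range. The changes were 0.75 ± 0.28 (adjusted p = 0.0347) and 1.21 ± 0.28 (adjusted p = 0.00184). The second call held with arrays averaged (adjusted p = 0.0177), with slide as a block (adjusted p = 0.00431) and within slide 3 (adjusted p = 0.0212). The first was lost with arrays averaged (adjusted p = 0.187), with slide as a block (adjusted p = 0.0744), under the other percentile (0.0787) and in 5 of 24 fits that left out 1 sample (adjusted p up to 0.13). Over all months the second probe changed by 0.55 ± 0.2 (adjusted p = 0.046), a call lost in 16 of such fits (adjusted p up to 0.0957).

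Kcna4, which carries the slow transient outward current, did not pass. It changed by 0.11 ± 0.2 at month 2 (adjusted p = 0.758) and 0.41 ± 0.21 at month 3 (adjusted p = 0.131). Kcnab1, a cytoplasmic partner of Kv1 channels, changed by 0.57 ± 0.29 at month 3 (adjusted p = 0.127), with the 4 samples at -5.29, -5.51, -3.16 and -5.02.

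Of the Kv3 subunits, which carry fast currents in neurons, Kcnc1 was higher at months 2 and 3. Its level was -5.38, -5.59, -5.49, -5.58 and -5.56 at month 1, -4.5, -4.45, -4.45, -4.45 and -4.8 at month 2, -5.25, -4.54, -4.18 and -4.7 at month 3, and -6.03 to -4.51 with a median of -5.47 in sham. The probe was kept through months 2 and 3 only, the groups where it is high, so its p-values are not independent of the background filter. In sham, 7 of 10 arrays were above background. At month 2, 4 of 5 samples lay above every sham, and at month 3 1 of 4 did. The change was 0.77 ± 0.19 at month 2 (adjusted p = 0.0133) and 0.63 ± 0.21 at month 3 (adjusted p = 0.0185). Both calls were lost with arrays averaged (adjusted p = 0.109 and 0.18) and without Sham 3, 4 and 10 (0.0634 and 0.0735), and that of month 3 also without its sample 2 or 3 (adjusted p up to 0.111).

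Among the silent Kv subunits, which form no channel alone and modify other Kv channels, Kcnv2 was lower at month 3. Its level was -4.12, -2.32, -2.27, -2.17 and -4.31 at month 1, -4.22, -3.2, -3.87, -3.66 and -4.23 at month 2, -4.81, -4.16, -4.7 and -4.63 at month 3, and -4.23 to -2.07 with a median of -2.3 in sham. Sham 6 to 9 stood at -4.23 to -3.09 and the other shams at -2.34 to -2.07, and 3 of 4 month 3 samples lay below every sham. The change was -1.77 ± 0.43 at month 3 (3.41-fold lower, adjusted p = 0.00274) and -1.69 ± 0.5 with arrays averaged (adjusted p = 0.0239). Over all months it was -1.01 ± 0.3 (adjusted p = 0.019), a call lost with arrays averaged (adjusted p = 0.186), without Sham 3, 4 and 10 (adjusted p = 0.126) and after normexp correction (adjusted p = 0.0716). The 2 probes of Kcng2 changed by 0.03 ± 0.21 (adjusted p = 0.913) and -0.29 ± 0.14 (adjusted p = 0.0942) at month 3.

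Kcnh2, the ERG channel of rapid repolarisation in larger mammals, was lower at month 3. Its level was -2.64, -1.5, -1.47, -1.37 and -2.73 at month 1, -2.94, -2.49, -2.45, -2.46 and -2.86 at month 2, -3.09, -2.57, -2.47 and -3.4 at month 3, and -2.89 to -1.45 with a median of -1.6 in sham. Sham 6 to 9 lay at -2.89 to -2.27 and the other shams at -1.63 to -1.45, and 2 of 4 month 3 samples lay below every sham. The change was -0.94 ± 0.29 at month 3 (1.92-fold lower, adjusted p = 0.0136). The call was lost with arrays averaged (-0.95 ± 0.34, adjusted p = 0.0522), without Sham 3, 4 and 10 (adjusted p = 0.0612) and without month 3 sample 4 (adjusted p = 0.0683). Kcnq1, the channel of slow repolarisation, lay at -1.0, -0.59, -0.67 and -0.85 at month 3 and at -0.99 to -0.47 in Sham 6 to 9 and -0.1 to 0.18 in the other shams, and its month 3 change was -0.48 ± 0.22 (adjusted p = 0.0792). Kcnh3 and Kcnh4 changed by 0.44 ± 0.27 and 0.63 ± 0.32 at month 3 and did not pass (adjusted p = 0.196 and 0.119).

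**Figure D3:**
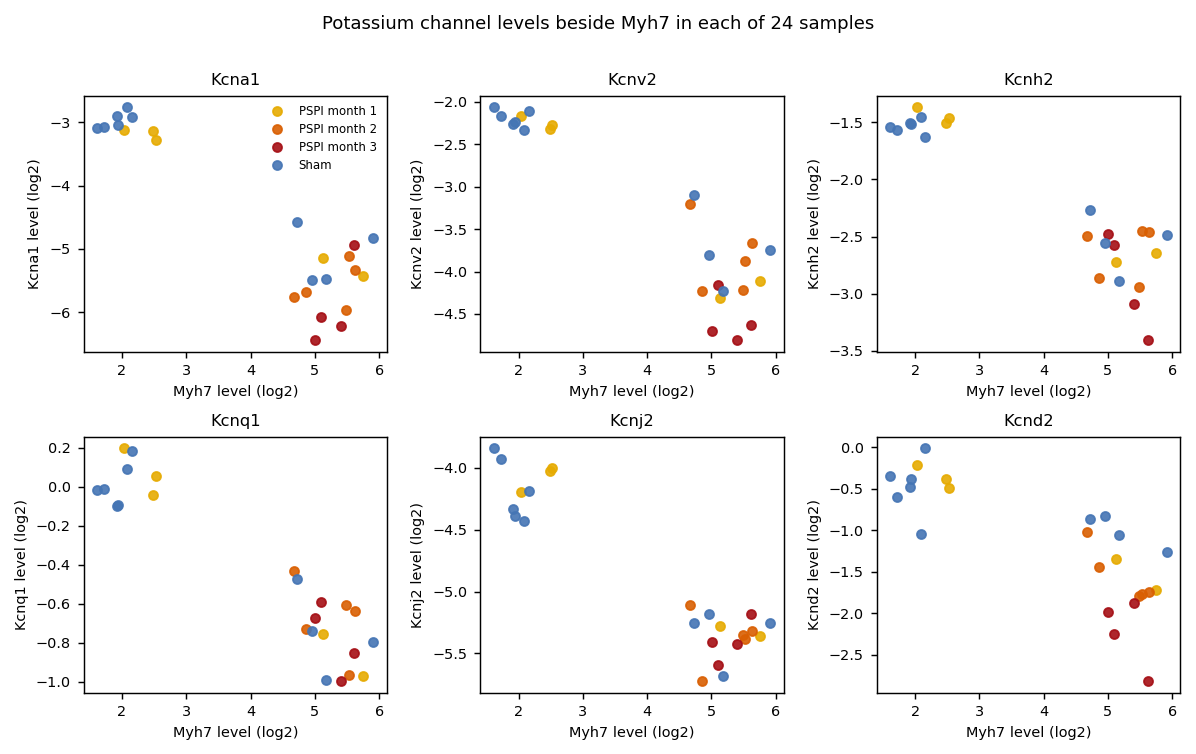
Log2 level of 6 potassium channel genes (vertical axes) against the log2 level of Myh7 (horizontal axes) in each of the 24 samples, coloured by group. Samples lie at 2 ranges of Myh7 that cross the groups, with shams and month 1 samples in both, and in the Kcnd2 panel the 4 month 3 samples are the lowest of all.

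Kcnj5, a subunit of the acetylcholine-gated inward rectifier, was lower at months 2 and 3. Its level was -0.61, 0.35, 0.44, 0.1 and -0.54 at month 1, -0.91, -0.72, -0.86, -0.69 and -0.88 at month 2, -1.25, -1.35, -1.19 and -1.3 at month 3, and -0.66 to 0.89 with a median of 0.23 in sham. All 5 samples of month 2 and all 4 of month 3 lay below every sham, and month 1 lay inside the sham range. Sham 6 to 9 stood at -0.66 to -0.11 and the other shams at 0.19 to 0.89, and month 1 samples 1 and 5 stood at -0.61 to -0.54 with samples 2 to 4 at 0.1 to 0.44. The change was -0.98 ± 0.23 at month 2 (1.97-fold lower, adjusted p = 0.0115) and -1.44 ± 0.25 at month 3 (2.71-fold, adjusted p = 0.000142). Of 8 atrial markers 7 were kept (not Bmp10), with a summed level of 1.73 to 6.58 at month 1, 4.74 to 6.42 at month 2, 4.95 to 5.74 at month 3 and 0.86 to 7.63 in sham. Single atrial markers differed from that sum: at month 3 Nppa lay at 4.92 to 5.7 while Myl7 and Sln lay low, as given above, and the median change of the 7 markers was -1.59. Kcnj5 was highest in Sham 3, 4 and 10. Without these 3 shams the change was -0.69 ± 0.2 at month 2 (adjusted p = 0.0504) and -1.15 ± 0.21 at month 3 (adjusted p = 0.00042), and without all 10 arrays of higher Myl7 it was -1.15 ± 0.19 at month 3 (adjusted p = 0.00132). The part of atrial tissue in the Kcnj5 result was not tested. With arrays averaged the change was -0.83 ± 0.25 at month 2 (adjusted p = 0.109) and -1.31 ± 0.27 at month 3 (adjusted p = 0.00348).

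Kcnj3, the partner of Kcnj5 in that channel, passed by 1 of its 2 probes. The first lay at -6.31, -4.82, -5.54 and -5.7 at month 3 and -5.78 to -2.92 with a median of -3.88 in sham, so that 1 of 4 month 3 samples lay below every sham. This probe was kept through sham and month 1 only, so its p-values are not independent of the background filter. It was above background on 2 of 4 arrays at month 3. It changed by -1.39 ± 0.5 (adjusted p = 0.0321) and the second probe by -0.97 ± 0.53 (adjusted p = 0.149). Sham 3, 4 and 10 held the 3 highest values of either probe, and without them the first changed by -0.89 ± 0.46 (adjusted p = 0.136). The call was also lost after normexp correction (-0.37 ± 0.37, adjusted p = 0.427), with arrays averaged (adjusted p = 0.0957) and in 5 of 24 fits that left out 1 sample (adjusted p up to 0.096).

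Kcnj4, a strong inward rectifier, was higher at months 2 and 3. Its level was -4.19, -5.78, -4.82, -4.33 and -4.05 at month 1, -2.66, -2.7, -2.94, -3.21 and -2.4 at month 2, -2.89, -2.64, -2.35 and -2.95 at month 3, and -6.02 to -3.26 with a median of -4.2 in sham. All 5 samples of month 2 and all 4 of month 3 lay above every sham, and month 1 lay inside the sham range. Within sham, samples 6 to 9 stood at -3.89 to -3.26 and the others at -6.02 to -3.85. The probe was kept through PSPI groups only, so its p-values are not independent of the background filter. In sham, 9 of 10 arrays were above background. The change was 1.72 ± 0.41 at month 2 (3.3-fold higher, adjusted p = 0.0116) and 1.8 ± 0.44 at month 3 (3.48-fold, adjusted p = 0.00307). With arrays averaged it was 1.48 ± 0.46 at month 2 (adjusted p = 0.112) and 1.55 ± 0.51 at month 3 (adjusted p = 0.038). Without Sham 3, 4 and 10 the month 2 change was 1.24 ± 0.35 (adjusted p = 0.0513), and within slide 3 the month 3 call was lost (adjusted p = 0.094).

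Kcnj2 and Kcnj12 encode the main subunits of the resting inward rectifier current. Kcnj12 lay at -1.1, -2.03, -1.75 and -1.69 at month 3 and -1.75 to -0.82 with a median of -1.21 in sham, with 2 of 4 month 3 samples at or under the lowest sham. For Kcnj12, Sham 6 to 9 stood at -1.75 to -1.31 and the other shams at -1.23 to -0.82. Kcnj12 was lower over all months (-0.35 ± 0.1, adjusted p = 0.0189) and at month 3 (-0.41 ± 0.15, adjusted p = 0.0319). Both calls were lost with arrays averaged (adjusted p = 0.136 and 0.181), and that of month 3 without its sample 2, 3 or 4 (adjusted p up to 0.183). Kcnj2 changed by -0.75 ± 0.3 at month 3 (adjusted p = 0.0523), and its shams were split, with Sham 6 to 9 at -5.68 to -5.18 and the others at -4.43 to -3.85.

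Of the ATP-sensitive channel genes, Kcnj11, the pore subunit of heart muscle, was read by 2 probes. The second lay at -5.32 to -4.6 at month 1, -5.87 to -4.72 at month 2, -5.91 to -4.94 at month 3 and -7.1 to -5.36 in sham. This probe was kept through month 1 only, one of the groups where it is high, so its p-values are not independent of the background filter. It was above background on 5 of 5 arrays at month 1, 4 of 5 at month 2, 3 of 4 at month 3 and 4 of 10 in sham. It was higher over all months (0.86 ± 0.2, adjusted p = 0.00378), also with arrays averaged (adjusted p = 0.0227) but not with slide as a block (adjusted p = 0.127). At month 3 it changed by 0.71 ± 0.28 (adjusted p = 0.0477), a call lost in 16 of 24 fits that left out 1 sample (adjusted p up to 0.198). The first probe changed by 0.31 ± 0.13 over all months (adjusted p = 0.0765). Kcnj8, the pore subunit of vessels, was lower over all months (-0.32 ± 0.11, adjusted p = 0.0396), which was lost with slide as a block (adjusted p = 0.266) and in 12 of such fits (adjusted p up to 0.0785).

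Of the 6 probes of K2P background channels, 3 were higher and 1 lower at month 3, beside 21.7% and 18.2% of all probes. Of those 3, Kcnk15 and Kcnk16 were kept through month 3 only, the group where they are high. Their rank and p-values at month 3 are therefore not independent of the background filter. Kcnk15, a subunit known to give no current when expressed alone, lay at -6.46, -5.19, -7.42, -5.81 and -6.0 at month 1, -6.46, -6.86, -6.61, -5.92 and -6.92 at month 2, -5.72, -4.47, -4.44 and -4.17 at month 3, and -7.53 to -6.29 with a median of -6.88 in sham. All 4 month 3 samples lay above every sham, and the change was 2.17 ± 0.32 (adjusted p = 1.87e-05). Kcnk16, known from the pancreas, lay at -6.26, -6.66, -6.49, -5.96 and -5.09 at month 1, -7.22, -6.77, -7.6, -5.37 and -6.53 at month 2, -6.06, -4.63, -4.47 and -4.26 at month 3, and -7.74 to -6.14 with a median of -7.03 in sham. All 4 month 3 samples again lay above every sham, and the change was 2.13 ± 0.37 (adjusted p = 0.000149). Both probes were dim: Kcnk15 was above background on 2 of 5 arrays at month 1, 2 of 5 at month 2, 4 of 4 at month 3 and 1 of 10 in sham, and Kcnk16 on 1, 2, 4 and 2. After normexp correction the month 3 changes were 1.19 ± 0.26 and 1.11 ± 0.27 (adjusted p = 0.00157 and 0.003), and with arrays averaged they were 2.14 ± 0.41 and 1.98 ± 0.46 (adjusted p = 0.00208 and 0.0068). The probes lie at chr2:163684551-163684610 (Kcnk15, plus strand) and chr14:21081978-21082037 (Kcnk16, minus strand), and G and C make up 63.3% and 51.7% of their bases.
Kcnk15: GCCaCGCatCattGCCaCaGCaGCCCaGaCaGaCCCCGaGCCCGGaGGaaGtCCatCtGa
Kcnk16: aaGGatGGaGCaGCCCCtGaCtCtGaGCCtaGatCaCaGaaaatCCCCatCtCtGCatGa

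Kcnk3, an acid-sensitive background channel of heart muscle and pulmonary artery, lay at 0.63, 0.69, 0.72 and 0.05 at month 3 and 0.57 to 1.19 with a median of 0.94 in sham. Sample 4 alone lay below every sham. The change was -0.38 ± 0.15 (adjusted p = 0.0475), a call lost in 16 of 24 fits that left out 1 sample (adjusted p up to 0.264). Kcnk4, a mechanically gated channel, was higher at month 3 (0.79 ± 0.31, adjusted p = 0.0483), which was lost in 17 of such fits (adjusted p up to 0.32). Kcnk6 and Kcnk13 changed by -0.07 ± 0.13 and 0.34 ± 0.22 at month 3 (adjusted p = 0.704 and 0.216).

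Kcnn2, a calcium-activated channel of small conductance, was lower at month 3 than in sham and than at month 2. Its level was -3.11, -2.44, -2.57, -2.67 and -2.9 at month 1, -3.11, -2.69, -3.23, -3.09 and -2.95 at month 2, -3.39, -3.49, -3.55 and -3.66 at month 3, and -3.03 to -2.2 with a median of -2.63 in sham. The 4 month 3 samples lay below every sham and below every month 2 sample. The change at month 3 was -0.9 ± 0.14 (1.87-fold lower, adjusted p = 3.88e-05), and it held with arrays averaged (-0.88 ± 0.18, adjusted p = 0.0026), with slide as a block (-1.03 ± 0.17, adjusted p = 0.000128) and within slide 3 (adjusted p = 0.0104). After normexp correction it was -0.52 ± 0.14 (adjusted p = 0.00678). The month 2 change of -0.39 ± 0.13 (adjusted p = 0.0483) was lost in 16 of 24 fits that left out 1 sample (adjusted p up to 0.137). Kcnt2, a sodium-activated channel, changed by 0.18 ± 0.19 at month 3 (adjusted p = 0.468).

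Kcne4, an auxiliary subunit that dampens several Kv channels, was higher at months 2 and 3. Its level was -5.33, -6.27, -7.59, -6.03 and -5.14 at month 1, -4.92, -5.42, -5.0, -5.57 and -4.63 at month 2, -5.19, -4.98, -4.91 and -4.79 at month 3, and -7.5 to -5.33 with a median of -6.5 in sham. All 4 month 3 samples and 3 of 5 month 2 samples lay above every sham. The change was 1.23 ± 0.36 at month 2 (adjusted p = 0.0278) and 1.37 ± 0.39 at month 3 (adjusted p = 0.00799). The probe was kept through month 3 only, one of the groups where it is high, so its p-values are not independent of the background filter. It was above background on 2 of 5 arrays at month 1, 4 of 5 at month 2, 4 of 4 at month 3 and 3 of 10 in sham. With arrays averaged the month 3 call held (adjusted p = 0.0376) and the month 2 call was lost (adjusted p = 0.147), as it was without month 2 sample 1, 3 or 5 (adjusted p up to 0.0806). After quantile normalization the month 3 call was lost (adjusted p = 0.0626).

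Kcnq1ot1 is no channel but a non-coding RNA made from the Kcnq1 locus. It was lower over all months (-0.38 ± 0.1, adjusted p = 0.00734) and at month 2 (-0.47 ± 0.13, adjusted p = 0.0209). Both calls were lost with arrays averaged (adjusted p = 0.114 and 0.163) and with slide as a block (0.178 and 0.328), and that of month 2 without its sample 1, 3 or 4 (adjusted p up to 0.06).

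Month 3 was set against month 2 to see which channel genes differed late. Kcnk15 (1.85 ± 0.36, adjusted p = 0.000767), Kcnk16 (1.84 ± 0.42, adjusted p = 0.00328), the first probe of Kcna5 (1.1 ± 0.31, adjusted p = 0.0139) and the first of Kcna7 (1.13 ± 0.38, adjusted p = 0.0373) were higher at month 3. Of these, Kcnk15 and Kcnk16 were kept through month 3 only, so their p-values are not independent of the background filter. Kcnip2, Kcnn2 (-0.51 ± 0.16, adjusted p = 0.0241) and the second probe of Kcna7 (-0.46 ± 0.14, adjusted p = 0.02) were lower. Kcna7, a Kv1 subunit of heart and skeletal muscle, was thus called in opposite directions by its 2 probes. The first lay at -3.3, -1.29, -1.2 and -1.7 at month 3 and -3.21, -3.71, -2.87, -2.55 and -2.66 at month 2. The second lay at -2.35, -1.88, -2.21 and -2.63 at month 3 and -1.83, -1.72, -1.84, -1.85 and -1.83 at month 2. They read different stretches, at chr7:52664902-52664961 and chr7:52666474-52666533, both on the plus strand.
Kcna7, first probe: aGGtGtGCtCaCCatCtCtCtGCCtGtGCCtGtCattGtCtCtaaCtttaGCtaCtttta
Kcna7, second probe: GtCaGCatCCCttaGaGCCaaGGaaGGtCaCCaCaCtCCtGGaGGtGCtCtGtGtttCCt

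Month 3 sample 1, on slide 2, stood apart from samples 2 to 4, on slide 3. The count of 7 between months 3 and 2 became 15 without sample 1, 4 without sample 3, 3 without sample 4, 4 with arrays averaged and 3 with slide as a block. Over all probes tested, 4758 became 2366 with arrays averaged and 2134 with slide as a block. Within slide 3 (3 month 3 samples against 1 of month 2) the difference was 2.56 for Kcnk15, 2.08 for Kcnk16, 1.51 for the first Kcna5 probe and 1.26 for the first Kcna7 probe. Within slide 2 (1 against 4) it was 0.74, 0.68, 0.22 and -0.22, the last with the opposite sign. Kcnn2 was -0.62 on slide 3 and -0.36 on slide 2. With slide as a block the calls of Kcnk16 (adjusted p = 0.051), Kcna5 (0.148), the first Kcna7 probe (0.24) and Kcnn2 (0.149) were lost. With arrays averaged those of Kcna5 (adjusted p = 0.0802), the first Kcna7 probe (0.182) and Kcnn2 (0.0936) were lost. Single samples also ended the calls of Kcna5 (month 3 sample 3 or 4, adjusted p up to 0.0587), of the first Kcna7 probe (any of 6 samples, 0.15), of the second (month 3 sample 4, 0.103) and of Kcnn2 (month 2 sample 2 and month 3 samples 3 and 4, 0.0762).

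Base composition and dimness moved with the month 3 change over the whole array. The median change at month 3 was 0.74 for the 259 probes with over 60% G and C and -0.06 for the 218 with up to 30%. It was 0.61 for the 2582 probes with a mean level of -5 or lower. The part of these in the higher Kcn probes was not tested.

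**Figure D4:**
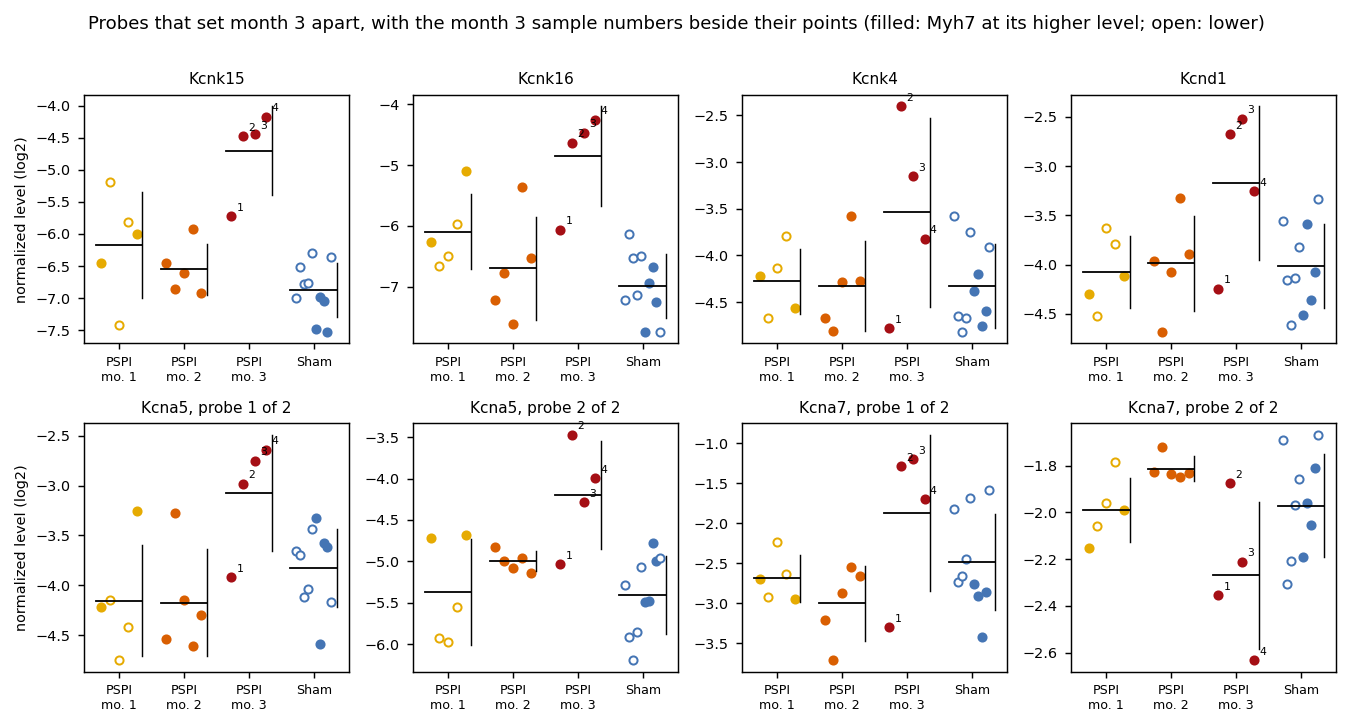
Log2 level per sample for 8 probes of 6 genes, PSPI by month and then sham, with month 3 sample numbers beside their points. Horizontal lines are group means, vertical lines ± 1 SD, each panel has its own axis, and filled points are samples with Myh7 at 4.67 or more. Month 3 samples 2 to 4 lie above sample 1 in each panel except that of the second Kcna7 probe.

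Partners and regulators of these channels were read from a list of 32 genes, of which 25 had a kept probe. Over all months 0 were higher (12.6% of all probes were) and 6 lower (10.8%). At month 2 they were 0 (6.22%) and 5 (6.68%), and at month 3 4 (21.7%) and 7 (18.2%). The median change of the list at month 3 was -0.18, beside 0.03 for all probes. Akap5, an anchor that brings protein kinase A to channels, was lower at month 3 (-2.17 ± 0.42, adjusted p = 0.000363). Nedd4l, a ubiquitin ligase that removes channels from the membrane (-0.42 ± 0.09, adjusted p = 0.00112), and Ank2, a membrane anchor (-0.39 ± 0.09, adjusted p = 0.00249), were lower as well. Abcc9, the sulfonylurea receptor that pairs with Kcnj8 and Kcnj11, was lower at month 2 (-0.62 ± 0.13, adjusted p = 0.00652) and higher at month 3 than at month 2 (0.63 ± 0.16, adjusted p = 0.00631). Irx4, a transcription factor of ventricular muscle (-0.42 ± 0.16, adjusted p = 0.0375), and Mef2c, a factor of muscle genes (-0.52 ± 0.13, adjusted p = 0.00303), were lower at month 3, while the kinase gene Sgk1 was higher (0.87 ± 0.3, adjusted p = 0.0255).

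Cell type markers were read beside the channel genes, and their counts stand beside 21.7% of all probes higher and 18.2% lower at month 3. All 9 ventricular muscle markers were kept, with a median change of 0.49 at month 3 and 2 of them lower. At month 3 the median was -1.59 for atrial (1 of 7 lower), 0.56 for conduction (1 kept, higher), 0.2 for endothelial (2 of 7 higher) and -0.13 for fibroblast markers (1 higher and 1 lower of 6). It was 0.14 for smooth muscle (2 of 7 higher), 0.3 for macrophage (1 of 6 higher) and 0.79 for lymphocyte markers (1 of 2 higher). It was -0.64 for neuron and Schwann cell markers (1 higher, Snap25, and 2 lower, Sox10 among them, of 4). It was -2.19 for adipocyte (2 of 2 lower), -0.18 for erythroid (0 of 3 passed) and -0.27 for skeletal muscle markers (0 of 1 passed). The conduction markers Hcn4, Cntn2, Shox2 and Isl1 had no kept probe. The part of these cell types in the channel changes was not tested.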

How the data were processed

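RNA of 24 right ventricles was read on 1-colour Agilent arrays. Per the file headers, gProcessedSignal is spot intensity background-subtracted by Agilent Feature Extraction 10.7.3.1, and the main fit used it. The deposited table instead matched another column of the scanner files, gNetSignal, at 62976 of 62976 spots on each array. Here control and outlier spots were left out, spots of 1 probe averaged, and log2 values set relative to each array's 75th percentile over the 16946 probes that were well above background throughout. Of 55681 probes, 21040 passed the same background filter as the members and were fitted with limma 3.58.1 in R 4.3.3 (4 group means, 2-sided, Benjamini-Hochberg adjustment, threshold 0.05). The fit was tried on simulated arrays with independent noise. These had no near-coinciding arrays, slides or split within sham, so the trial does not bear on such features of the real arrays. Depth does not apply to arrays, so their number limits the precision. Named were the 4 members given by name, the cardiac current genes with a kept probe, and in each comparison the Kcn probes past the threshold, up to 8 per direction, with others given briefly. Some genes are not reported here. Members and lists (channel partners, cell type markers) were chosen with earlier results of these data known. Alternatives changed the scaling, background correction (normexp, offset 50), filter, probes per gene, slide, replicate block and samples. A further alternative used the authors' deposited table, which holds gNetSignal. Probe sequences and mm9 positions come from the scanner files.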

Additional observations from a re-analysis of the deposited data

Results flagged for a closer look

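In 10 of 176 sets of 1 probe in 1 group, a single sample lay far from the others, and chance gives about 1 in 20 such sets. At month 2 these were Kcna4 in sample 4 (-1.49), the second Kcna7 probe in sample 2 (-1.72), Kcnab1 in sample 3 (-6.18), Kcnc1 in sample 5 (-4.8) and Kcnh4 in sample 2 (-5.78). At month 1 they were the second Kcnj11 probe in sample 2 (-4.6), Kcnj12 in sample 4 (-1.31) and Kcnj8 in sample 3 (-2.06). At month 3, Kcnk3 in sample 4 stood at 0.0531, and in sham the first Kcnj11 probe in Sham 6 stood at -3.76.

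For 7 probes the change at month 3 differed from that at month 2 in limma. The difference was 1.85 for Kcnk15 (adjusted p = 0.000767), 1.84 for Kcnk16 (adjusted p = 0.00328), 1.1 for the first Kcna5 probe (adjusted p = 0.0139) and 1.13 for the first Kcna7 probe (adjusted p = 0.0373). It was -1.41 for Kcnip2 (adjusted p = 0.00171), -0.508 for Kcnn2 (adjusted p = 0.0241) and -0.456 for the second Kcna7 probe (adjusted p = 0.02). Both changes share the 10 shams, so the difference is that of the 2 months. For Kcnk15 and Kcnk16, kept through month 3 only, the p-values are not independent of the background filter.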

How the results depend on the processing

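The 59 named changes were recomputed under the alternatives, which gave 2299 values. Of these, 1876 kept their side of the threshold and 406 lost their call. Fits that left out 1 sample gave 148 of those losses, with 1263 values that kept their side. With near-coinciding arrays averaged, 35 of the 59 lost their call and 24 kept their side. Of the 2299 values, 16 gained a call and 1 changed sign. That was Kcnd3 over all months, at 0.0249 ± 0.13 without the 10 arrays of higher Myl7 (adjusted p = 0.937) and at -0.24 ± 0.1 with all arrays, neither past the threshold. Over all months the count of 16 Kcn probes moved to 8 with only probes above background on all arrays (30 Kcn probes remain there), 0 within slide 3 (14 at an unadjusted p under 0.05 in limma), 4 with near-coinciding arrays averaged, 9 without Sham 3, 4 and 10 and 6 without month 3. At month 2 the count of 10 moved to 5 after normexp correction, 5 from the deposited table, 1 with no filter on dim probes, 6 with probes above background on all arrays, 0 within slide 3 (6 at an unadjusted p under 0.05 in limma), 0 with arrays averaged (14 likewise) and 2 without Sham 3, 4 and 10. At month 3 the count of 21 moved to 11 with probes above background on all arrays, 8 within slide 3 and 11 with arrays averaged. Between months 3 and 2 the count of 7 moved to 4 after normexp correction, 4 from the deposited table, 4 with no filter, 3 with slide as a fixed block, 2 within slide 3 and 4 with arrays averaged. Between months 2 and 1 it was 1 when fitted on the groups compared. The calls over all probes moved too. With arrays averaged they fell from 4921 to 1452 over all months and from 2713 to 46 at month 2. They also fell from 8388 to 4839 at month 3 and from 4758 to 2366 between months 3 and 2. After normexp correction they were 1834 at month 2 and 2536 between months 3 and 2. With no filter on dim probes these were 418 and 4986. Within slide 3 the calls over all probes were 3566 at month 3. The cause of these moves was not tested, other than that some settings test fewer probes or samples. Without the 10 arrays of higher Myl7, an alternative chosen after seeing the data, the counts were 1 over all months, 0 at month 2 (6 at an unadjusted p under 0.05 in limma), 11 at month 3 and 1 between months 3 and 2. Leaving out 1 sample at a time gave 13 to 20 over all months, 0 to 0 at month 1, 5 to 15 at month 2, 13 to 27 at month 3, 0 to 0 between months 2 and 1, and 3 to 15 between months 3 and 2. Samples with the same number were compared for pairing: the correlation of their deviations from the group means was -0.54 to 0.592 over 27 pairs, with 9 pairs over 0.1, so the numbers were not taken to pair samples. The replicate block gave 21 over all months, 1 at month 1, 20 at month 2, 24 at month 3, 1 between months 2 and 1 and 8 between months 3 and 2. Over all probes tested it gave 5296, 151, 4788, 7884, 48 and 4604. Signal over background limits the dim probes, and the number of arrays limits the precision of all.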
